A study of Mus musculus with 6 samples.

Results

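The phosphoinositide 3-kinase (PI3K) genes of marginal zone (MZ) B cells were examined in CD55-deficient and wild-type mice. The set holds 10 genes of the 55487 gene IDs in the count table: the class I catalytic genes Pik3ca, Pik3cb, Pik3cd and Pik3cg, the class I regulatory genes Pik3r1 and Pik3r5, the adaptor Pik3ap1, the class II genes Pik3c2a and Pik3c2b, and the class III gene Pik3c3. They were taken from the table by symbol, and the set was chosen by results of this same contrast, since the lower Pik3c2b counts of the CD55KO libraries were known when it was put together. The differences between the genotypes in these 10 genes are therefore a description and carry no test of their own. RNA was sequenced in 6 libraries of MZ B cells, 3 labelled CD55KO and 3 labelled WT on the C57BL/6 background, all from animals of 14 weeks. B cells were enriched by removing other cells and MZ B cells were then sorted by flow cytometry. The sources used here do not give how the CD55KO allele was made, its strain background, or whether each library came from a mouse of its own, so p-values measure library-to-library spread only, and that may be technical. The labels name no treatment for either group.

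PI3Ks add a phosphate to the inositol ring of membrane lipids. Class I enzymes pair a catalytic with a regulatory subunit and make PIP3 at the plasma membrane when the B cell receptor or G protein-coupled receptors are engaged, and PIP3 recruits AKT and BTK. MZ B cells are known to need the delta catalytic subunit. Class II enzymes are single large proteins that make other 3-phosphorylated lipids on endosomes and the plasma membrane, and the class III enzyme makes phosphatidylinositol 3-phosphate on endosomes and autophagosomes.

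The stretch just before the RefSeq transcription start is shown for both class II genes, because Pik3c2b differed between the genotypes while Pik3c2a did not pass the test. The sequences come from RefSeq on GRCm38.p6, where 9 of the 10 genes had an entry, and they end at the base before the RefSeq start. They were limited to 94 bases, the part of the Pik3c2b window that lies in no annotated exon of that gene. An alternative Pik3c2b transcript in GENCODE starts further upstream, so its stretch lies inside the gene as annotated there. The Pik3c2b stretch is chr1:133045918-133046011 on the plus strand, and the Pik3c2a stretch is chr7:116443459-116443552 on the minus strand. Capitals mark matches on either strand to the GC box GGGCGG and to the CCAAT box CCAAT.
Pik3c2b: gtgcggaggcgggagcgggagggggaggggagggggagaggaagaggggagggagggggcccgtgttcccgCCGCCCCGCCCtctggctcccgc
Pik3c2a: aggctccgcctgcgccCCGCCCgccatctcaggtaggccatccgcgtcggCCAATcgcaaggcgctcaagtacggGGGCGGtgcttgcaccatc
Both stretches held 2 GC boxes, and those of Pik3c2b overlap each other by a base. A GC box was found in 24% of 32851 promoters of the same length. The Pik3c2a stretch also held a CCAAT box, which 18% of the promoters had and the Pik3c2b stretch did not. The E-box CACGTG (3.02% of promoters), the ETS core GGAAGT (9.61%) and the TATA box TATAAA (5.31%) were found in neither. GC content was 79.8% for Pik3c2b and 70.2% for Pik3c2a, against a median of 55.3%. These are matches of letters and do not show binding.

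Total estimated counts were between 20056064 (WT replicate 1) and 30784031 (WT replicate 2) per library. WT replicate 1 stood apart on a principal component that held 28.8% of the variance. It was the shallowest library and also had the highest sum of red cell markers, 4351 CPM. What sets it apart was not tested. Cd55 had 2580, 3715 and 3096 counts in WT replicates 1 to 3 but 244, 154 and 212 counts in CD55KO replicates 1 to 3, so the targeted transcript follows the labels. The MZ markers Cr2, Cd1d1, Cd9, Notch2, Dtx1, Asb2, Myof and S1pr3 summed to between 3074 and 3301 CPM (counts scaled to a common library total) in CD55KO and between 3024 and 3192 CPM in WT, and none of the 8 passed the test. T cell markers summed to at most 1.86 CPM, with Cd3e, Cd3g, Cd8a and Trbc2 at 3 counts or fewer in each library, and natural killer markers to at most 0.595 CPM, with Ncr1 at 0. Plasma cell markers summed to between 159 and 175 CPM in CD55KO and between 197 and 245 CPM in WT, and 1 of 7 tested, Xbp1, was called lower. Germinal centre markers summed to between 19.1 and 28.8 CPM in CD55KO and between 25.8 and 60.9 CPM in WT, and 1 of 7, Gcsam, was called lower. Red cell markers varied from 35.8 to 4351 CPM, with both genotypes spread over that range, and none of the 6 was called. Follicular B cell markers summed to between 1036 and 1228 CPM in CD55KO and between 1095 and 1113 CPM in WT.

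Among the 9 PI3K genes with enough counts for the test, Pik3c2b had the widest difference between the genotypes. Pik3c2b encodes the beta isoform of the class II enzymes, a kinase that acts on endosomal and plasma membrane lipids. It lies on the plus strand at chr1:133045667-133108687 (GRCm38, GENCODE M21), with 4 annotated transcripts. Its counts, scaled to CPM by the trimmed mean of M-values (TMM), were 23.0, 19.2 and 22.8 CPM in CD55KO replicates 1 to 3 and 49.0, 43.7 and 46.3 CPM in WT replicates 1 to 3. The highest CD55KO library lay below the lowest WT library by a wide margin, and each genotype was tight around its mean. The means were 21.7 ± 2.15 against 46.3 ± 2.63 CPM (SD, n = 3), and here and in what follows CD55KO is named before WT. On the log2 scale the difference, CD55KO minus WT, was -1.09 ± 0.10 (SE), so that the transcript stood at 46.8% of the WT level. The 95% interval of the fold was 0.406 to 0.540. By absolute log2 fold change it ranked 168 of 13794 tested genes.

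Of the 10 genes 9 had enough counts for the test, and 1 of them, Pik3c2b, passed the threshold of 0.05 on the adjusted p of edgeR's quasi-likelihood test, fitted over all genes, and was lower in CD55KO. Over all tested genes 0.399% were called, of which 0.261% were lower (36 genes) and 0.138% higher (19 genes). Since the set was chosen with this contrast known, nothing is read from that count. Pik3c2b was called in all 14 alternative fits, with log2 fold changes from -1.14 to -1.02. The plasma cell marker sum and the Pik3c2b level were both lower in CD55KO without overlap. The part of plasma cells in the Pik3c2b result was not tested. In bulk RNA, fewer cells of a type and less RNA per cell cannot be told apart.

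Pik3c2a, the widely expressed alpha isoform of class II, had a much smaller difference. It lies on the minus strand at chr7:116337265-116443449 and had 15.4, 13.4 and 15.9 CPM in CD55KO replicates 1 to 3 and 16.8, 15.7 and 16.4 CPM in WT replicates 1 to 3. The genotypes overlapped, since CD55KO replicate 3 was above WT replicate 2. The log2 fold change was -0.13 ± 0.12 (SE), with a fold interval of 0.773 to 1.09. Its exons share 1369 bases with Gm44777 on the opposite strand, which had 43 to 72 counts, and the SMARTer kit used is not one that keeps strand, so the Pik3c2a value is uncertain to that extent. Per kilobase of exon, Pik3c2b made up 77.8, 77.0 and 77.3% of the summed class II level in WT replicates 1 to 3 and 64.2, 63.2 and 63.3% in CD55KO replicates 1 to 3. The class II genes thus kept the same order in each of the 6 libraries, with Pik3c2b above Pik3c2a. The remaining class II gene, Pik3c2g, known mainly from liver, had 0 counts in all 6 libraries. In WT replicate 1 a count of 0 allows a level of up to 0.146 CPM, for counting error only.

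**Figure D1:**
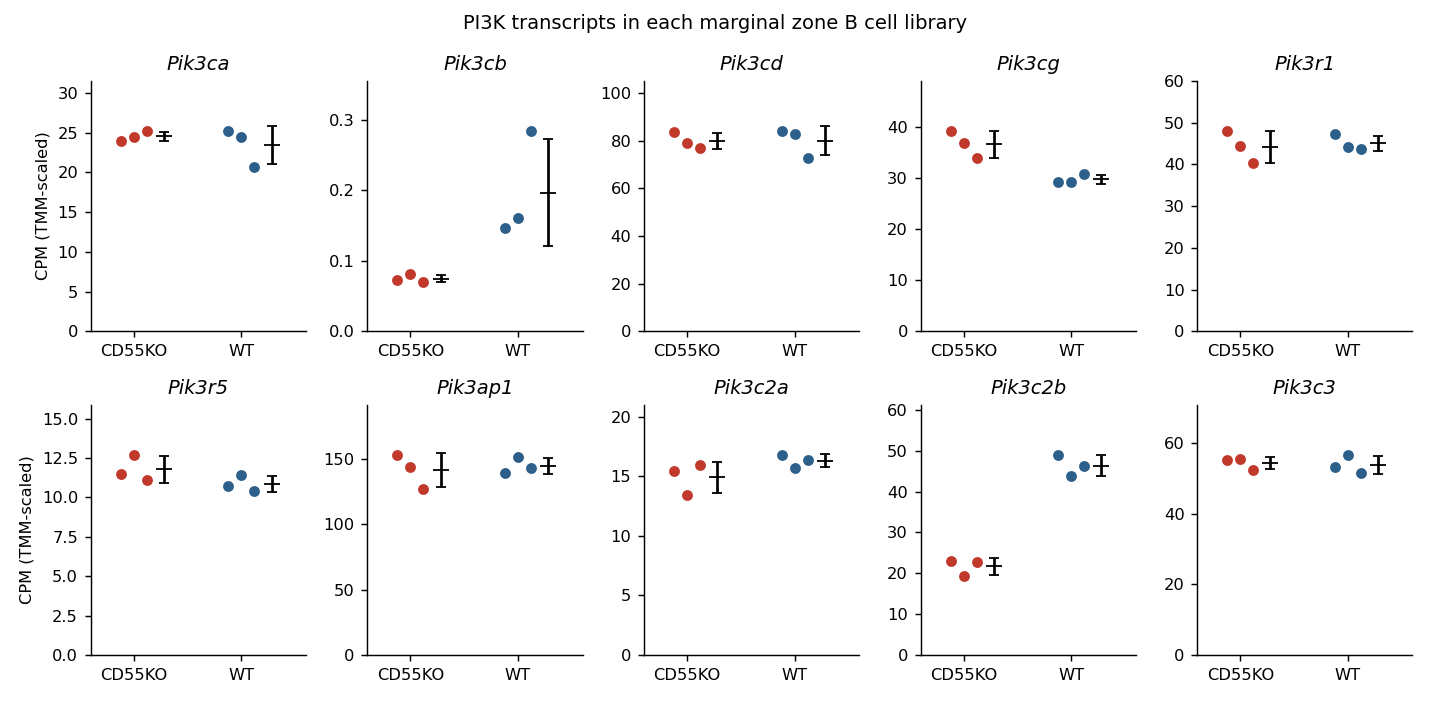
CPM, scaled by TMM, of the 10 PI3K genes in each library, CD55KO in red and WT in blue, with the mean and SD over 3 libraries in black and each axis starting at 0. Pik3c2b separates the genotypes, with means of 21.7 and 46.3 CPM, and Pik3cg has a smaller separation in the other direction.

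Pik3c2b is a neighbour of Cd55, at 2.58 Mb. Of the nearest tested genes on each side, those above 10 CPM had log2 fold changes near 0. Mdm4, which encodes a regulator of the tumour suppressor p53 and lies 0.0151 Mb from Pik3c2b, had 80.6 ± 4.21 against 81.8 ± 6.98 CPM (SD, n = 3; log2 fold change -0.02 ± 0.08 SE). Ppp1r15b, a phosphatase regulator gene 0.0225 Mb away on the other side, had 41.5 ± 3.19 and 42.7 ± 2.06 CPM (log2 fold change -0.04 ± 0.09 SE). Both were named with their values known. Gm29257 at 0.0192 Mb and Gm26616 at 0.0200 Mb, predicted genes at or below about 1 CPM, had log2 fold changes of 0.57 ± 0.44 and -0.32 ± 0.56 (SE) and did not pass (edgeR adjusted p = 0.793 and 0.935). Within 1 Mb of Pik3c2b, 1 of 20 other tested genes was called, Zc3h11a at 0.511 Mb (log2 fold change -0.71 ± 0.12 SE, edgeR adjusted p = 0.028). Zc3h11a stands in the table under a pair of gene IDs at the same place, and the other had a log2 fold change of -0.01, so how reads were divided between them is uncertain.

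Between Cd55 and Pik3c2b, 4 of 33 tested genes were called. Fcmr, the Fc receptor for IgM, was lower in CD55KO, with 368 ± 20.9 against 520.0 ± 64.7 CPM (edgeR adjusted p = 0.028). Srgap2 was higher, with 27.7 ± 3.24 against 18.2 ± 2.02 CPM (edgeR adjusted p = 0.025). Gm37109 and Gm37283, predicted genes next to Cd55, were higher, with 6.84 ± 0.676 against 0.139 ± 0.164 and 5.87 ± 0.996 against 0.227 ± 0.0732 CPM (edgeR adjusted p = 2.4e-05 and 6.2e-07). Ctse, which encodes cathepsin E, was also singled out with its values known. It had 305 ± 12.9 against 25.2 ± 13.9 CPM but did not pass (edgeR adjusted p = 0.133). Within 10 Mb of Cd55, with Cd55 and Pik3c2b left out, 12 of 114 tested genes were called (10.5%), 7 higher and 5 lower, against 0.300% of the 13678 genes elsewhere. Calls in this window around Cd55 therefore went in both directions, and most of its genes were not called. Loss of CD55 and the chromosome 1 segment that carries the targeted allele cannot be told apart in this design.

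**Figure D2:**
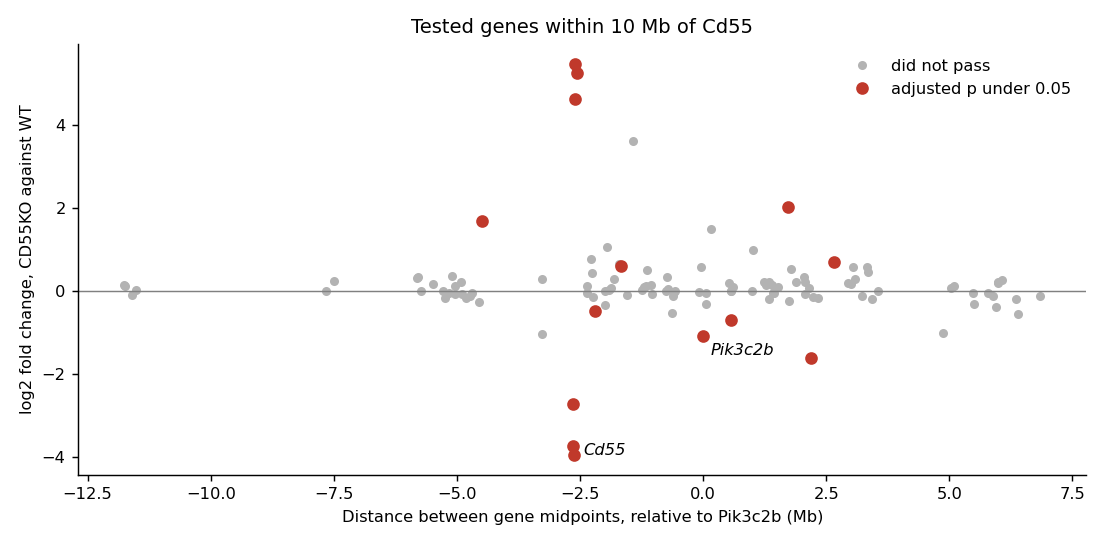
log2 fold change of CD55KO against WT for tested genes within 10 Mb of Cd55, against the distance of each gene's midpoint from that of Pik3c2b in Mb, with called genes in red. Called genes lie above and below 0 on both sides of Pik3c2b, and most of the neighbours lie near 0.

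The delta catalytic subunit gene Pik3cd, the class I isoform typical of leukocytes, was the most abundant class I catalytic transcript, and its mean was alike in both genotypes. Pik3cd (chr4:149649168-149702571, minus strand) had 83.6, 78.9 and 77.1 CPM in CD55KO replicates 1 to 3 and 84.0, 82.7 and 72.9 CPM in WT replicates 1 to 3. The libraries of the genotypes were interleaved, and the means were 79.9 ± 3.39 and 79.9 ± 6.07 CPM (SD, n = 3). The log2 fold change was 0.0004 ± 0.08 (SE), and the interval of the fold ran from 0.893 to 1.12. Pik3ca (chr3:32397671-32468486, plus strand), the broadly expressed alpha subunit gene, had 24.0, 24.4 and 25.2 CPM in CD55KO and 25.2, 24.4 and 20.7 CPM in WT, for replicates 1 to 3. WT replicate 3 was the lowest library and the other 5 lay close together (log2 fold change 0.07 ± 0.10 SE, fold interval 0.903 to 1.22).

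Pik3cg (chr12:32173473-32208659, minus strand) encodes the gamma catalytic subunit, which G protein beta-gamma dimers activate. It had 39.2, 36.8 and 33.9 CPM in CD55KO replicates 1 to 3 and 29.3, 29.2 and 30.8 CPM in WT replicates 1 to 3. The lowest CD55KO library was above the highest WT library, although the gap was small beside that of Pik3c2b. The means were 36.6 ± 2.63 and 29.8 ± 0.922 CPM (SD, n = 3), a fold of 1.23 with an interval of 1.08 to 1.40 and a log2 fold change of 0.30 ± 0.09 (SE). Pik3cg did not pass over all genes. The genotypes did not overlap in 2 of the 9 tested PI3K genes, Pik3c2b (lower) and Pik3cg (higher), beside 14.1% of all tested genes, 6.84% lower and 7.24% higher. Myeloid markers, which come from cells that also use Pik3cg, summed to between 23.6 and 24.6 CPM in CD55KO and between 17.1 and 22.1 CPM in WT, with none of 5 tested members called and S100a9 at 3 counts or fewer. T cell markers summed to between 1.42 and 1.86 CPM in CD55KO and between 0.926 and 1.07 CPM in WT. The part of these cells in the Pik3cg values was not tested.

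Pik3cb, the beta subunit gene (chr9:99036654-99140621, minus strand), was at the limit of detection in these libraries. It had 2 counts in each CD55KO library and 3, 5 and 8 counts in WT replicates 1 to 3, too few for the test. The CD55KO libraries lie under the floor of 3 counts. Summed over the libraries there were 6 counts against 16, a ratio of 0.373 with an exact (Clopper-Pearson) 95% interval of 0.119 to 1.00, which covers counting error only. In the fit without a count filter its adjusted p was 0.785 by edgeR. Per kilobase of exon, Pik3cd made up 64.4 ± 0.294% of the summed class I catalytic level in CD55KO and 67.5 ± 1.19% in WT (SD, n = 3). Pik3cg made up 21.9 ± 0.765 and 18.8 ± 1.73%, Pik3ca 13.6 ± 0.853 and 13.6 ± 0.616%, and Pik3cb 0.0525 ± 0.00415 and 0.147 ± 0.0669%. Delta thus held most of the class I catalytic transcript in each of the 6 libraries, with a range from 64.1 to 68.2%.

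The regulatory genes and the adaptor gave overlapping values. Pik3r1 (chr13:101680563-101768217, minus strand) encodes the main class IA regulatory subunits, which bind phosphotyrosines and hold the catalytic subunit at rest. It had 48.0, 44.3 and 40.4 CPM in CD55KO replicates 1 to 3 and 47.2, 44.1 and 43.8 CPM in WT replicates 1 to 3 (log2 fold change -0.03 ± 0.09 SE, fold interval 0.863 to 1.12). The WT libraries lay inside the range of the CD55KO libraries. Pik3r5 (chr11:68432121-68497849, plus strand), which encodes a regulatory partner of the gamma subunit, had 11.5, 12.7 and 11.1 CPM in CD55KO and 10.7, 11.4 and 10.4 CPM in WT. Both genotypes overlapped (log2 fold change 0.12 ± 0.13 SE, fold interval 0.896 to 1.31). Pik3ap1 (chr19:41272377-41385102, minus strand) encodes BCAP, an adaptor that brings PI3K to the B cell receptor complex. It had 153, 144 and 127 CPM in CD55KO and 139, 151 and 143 CPM in WT, and CD55KO replicate 1 and replicate 3 were the highest and the lowest of the 6 libraries. Its log2 fold change was -0.03 ± 0.08 (SE), with a fold interval of 0.871 to 1.10.

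The class III kinase gene Pik3c3, which encodes VPS34, was steady over the libraries. It had 55.4, 55.5 and 52.6 CPM in CD55KO replicates 1 to 3 and 53.3, 56.8 and 51.7 CPM in WT replicates 1 to 3. The genotypes were interleaved (log2 fold change 0.01 ± 0.08 SE, fold interval 0.901 to 1.13). Pik3r4, the gene of its regulatory partner VPS15, is outside the 10 genes and had 372 ± 31.7 against 386 ± 32.3 CPM (SD, n = 3; edgeR adjusted p = 0.937).

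**Figure D3:**
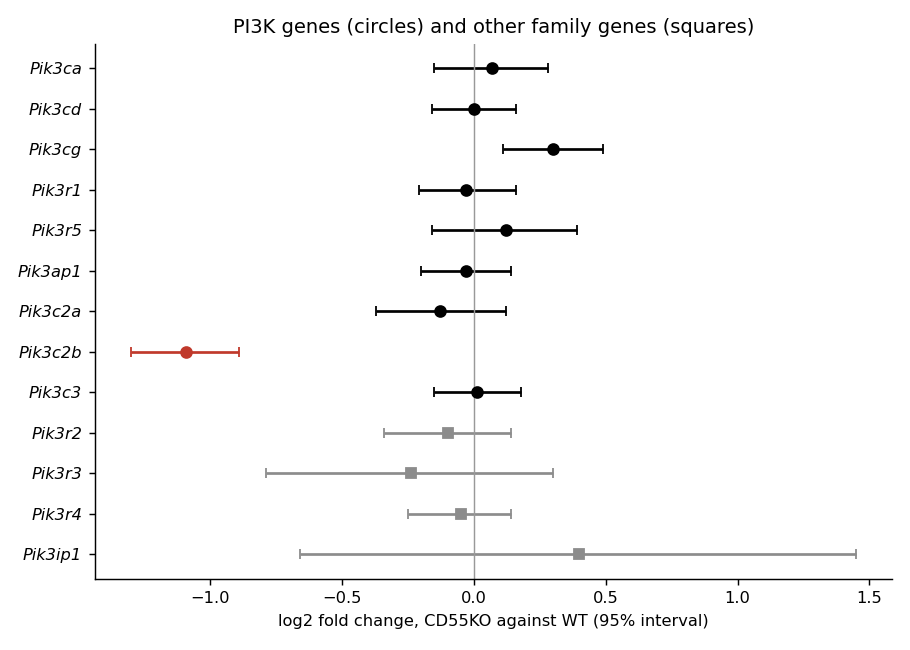
log2 fold change of CD55KO against WT with its 95% interval for the 9 tested PI3K genes (circles) and 4 further family genes (squares), with the called gene in red. Pik3c2b lies at -1.09, the interval of Pik3cg runs from 0.11 to 0.49, and the other intervals include 0.

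The 5 other family genes with any counts did not pass or were too low for the test. Pik3r2, another class IA regulatory gene, had 16.1 ± 0.438 against 17.2 ± 1.68 CPM (edgeR adjusted p = 0.882). Pik3r3, of the same kind, had 2.49 ± 0.667 and 2.95 ± 0.132 CPM (edgeR adjusted p = 0.864). Pik3ip1, which encodes a membrane protein that restrains class I PI3K, spread widely within each genotype. It had 40.3, 68.3 and 82.2 CPM in CD55KO replicates 1 to 3 and 37.5, 40.8 and 66.4 CPM in WT replicates 1 to 3 (log2 fold change 0.40 ± 0.39 SE, edgeR adjusted p = 0.865). Red cell markers summed to 1989, 1590.1 and 35.8 CPM and to 4351, 356 and 105 CPM in the same libraries, and their part in the Pik3ip1 spread was not tested. Pik3r6, which encodes the other partner of the gamma subunit, had 0, 0 and 1 counts in CD55KO and 6, 14 and 3 counts in WT. The ratio of the summed counts was 0.0432, with an exact interval of 0.00105 to 0.266 for counting error only, and the fit without a filter gave an edgeR adjusted p of 0.171.

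Levels were compared between genes as CPM per kilobase of merged exon, assuming even coverage along the transcript. Over the 6 libraries Pik3ap1 stood highest of the 10 genes at 25.6 ± 1.65 CPM per kb, above 85.9% of the tested genes. Pik3cd followed at 12.8 ± 0.702 and Pik3c3 at 12.1 ± 0.443 CPM per kb. Pik3r1 had 4.43 ± 0.271, Pik3cg 3.94 ± 0.492, Pik3c2b 3.68 ± 1.48, Pik3ca 2.64 ± 0.185, Pik3r5 2.04 ± 0.147, Pik3c2a 1.40 ± 0.106 and Pik3cb 0.0189 ± 0.0115 CPM per kb (SD, n = 6). The adaptor thus stood above the enzymes themselves, and the beta subunit far below all others.

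The 9 pairs of neighbours in this order were compared within libraries by an exact two-sided paired permutation test, which cannot go below p = 0.0312 with 6 libraries, and were adjusted over the 9 pairs. The order was taken from these same levels, so the sign of each mean difference was fixed beforehand. A small p shows only that the libraries were uniform in it. Pik3ap1 exceeded Pik3cd by 1.00 ± 0.10 on the log2 scale (SD, n = 6; exact p = 0.0312, adjusted 0.0469), higher in 6 of 6 libraries. Pik3c3 over Pik3r1 (1.46 ± 0.09), Pik3ca over Pik3r5 (0.37 ± 0.11), Pik3r5 over Pik3c2a (0.54 ± 0.21) and Pik3c2a over Pik3cb (6.41 ± 0.75) had the same adjusted p and the same direction in 6 of 6 libraries. Pik3cd over Pik3c3 also reached it, at 0.07 ± 0.06, but that order turned to -0.04 when the longest transcript of each gene was taken as its length. With that length Pik3ca and Pik3r5 were nearly level, at a difference of 0.05. The other 4 pairs kept their direction and the exact p of 0.0312, but did not pass after adjustment (adjusted exact p = 0.0703 each). The adjusted p depends on how many of the 9 pairs reach 0.0312, and fewer did with that length. It therefore does not show a change in these 4 pairs.

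Over both genotypes together, Pik3r1 over Pik3cg did not pass (0.18 ± 0.19, exact p = 0.0625, adjusted 0.0804, higher in 5 of 6 libraries). That spread includes a difference between the genotypes. In WT the means were 4.47 ± 0.187 for Pik3r1 and 3.53 ± 0.109 CPM per kb for Pik3cg. In CD55KO they were close, at 4.39 ± 0.379 and 4.35 ± 0.312 (SD, n = 3). The pairs with Pik3c2b cannot be read over both genotypes together, because its place in the order moved with genotype. In WT Pik3c2b had 5.01 ± 0.284 CPM per kb (SD, n = 3), above Pik3r1 at 4.47 ± 0.187, Pik3cg at 3.53 ± 0.109 and Pik3ca at 2.58 ± 0.265. In CD55KO its mean was 2.34 ± 0.232 CPM per kb, below Pik3cg at 4.35 ± 0.312 and between Pik3ca at 2.70 ± 0.0655 and Pik3r5 at 2.12 ± 0.156. In CD55KO replicate 2, however, Pik3c2b was below Pik3r5, at 2.08 against 2.30 CPM per kb. These places follow from the difference on which the set was chosen and are given as a description.

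**Figure D4:**
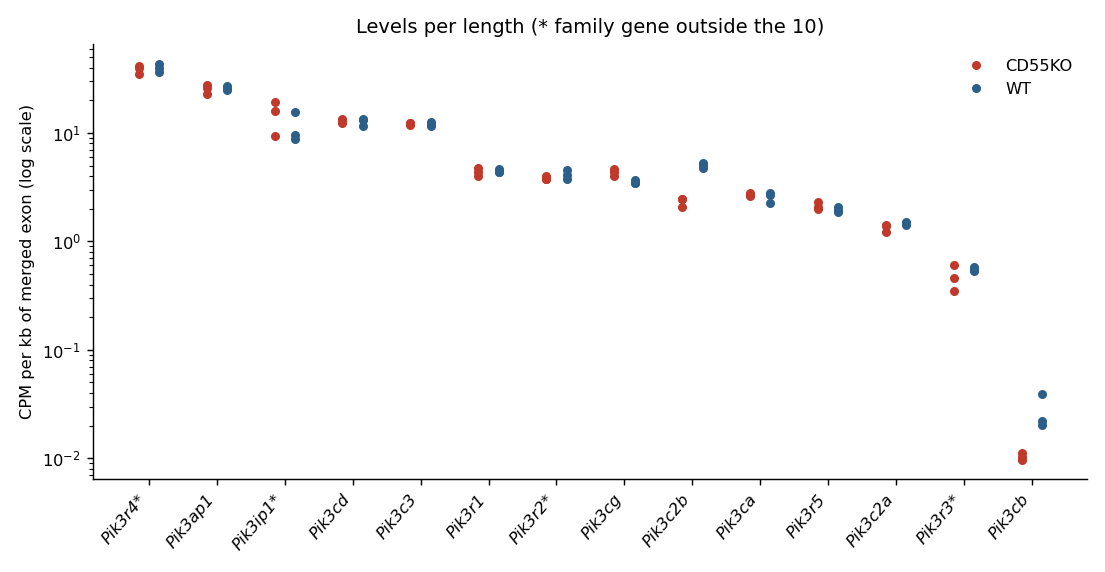
CPM per kilobase of merged exon on a log axis for PI3K genes and further family genes (starred), 1 point per library, CD55KO in red and WT in blue, without Pik3r6 and Pik3c2g, which had libraries at 0. Pik3ap1, Pik3cd and Pik3c3 form the top of the 10 genes and Pik3cb the bottom.

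Genes around the PI3Ks were read from lists of upstream receptors and adaptors, phosphatases, effectors and related lipid kinases. Of 110 genes, 101 were tested and none was called by edgeR in either direction, against 0.399% of all tested genes. An unadjusted p under 0.05 was found for 4 of the 101, beside 1186 of all 13794 tested genes, and neither the DESeq2 Wald test nor limma-voom called any. The median log2 fold change was -0.01, beside 0.0015 over all genes.

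Of 21 tested receptors, kinases and adaptors upstream of class I PI3K, 7 had positive and 14 negative log2 fold changes (median -0.02). Gab3, a docking adaptor gene, had 14.4 ± 1.38 against 11.8 ± 0.883 CPM (edgeR adjusted p = 0.559), and the Src-family kinase gene Fyn had 8.11 ± 0.832 and 9.64 ± 0.744 CPM (edgeR adjusted p = 0.705). Among 16 phosphatases that remove PI3K lipids or act on AKT the median was -0.04. The smallest p was that of Mtmr4, a phosphatase gene for the 3-phosphate made by class III and class II enzymes. Mtmr4 had 38.9, 36.6 and 35.7 CPM in CD55KO replicates 1 to 3 and 46.1, 48.1 and 44.6 CPM in WT replicates 1 to 3. The genotypes did not overlap, but the log2 fold change of -0.32 ± 0.08 (SE) did not pass (edgeR adjusted p = 0.158). Mtmr14, of the same family, had 17.2 ± 2.89 and 21.7 ± 5.18 CPM (edgeR adjusted p = 0.647).

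Of 26 tested effectors downstream of class I PI3K, 14 had positive and 12 negative log2 fold changes (median 0.01). The forkhead factor genes Foxo3 and Foxo1, whose proteins AKT keeps out of the nucleus, had 37.6 ± 1.22 and 61.4 ± 3.61 CPM in CD55KO and 32.7 ± 2.21 and 54.4 ± 4.07 CPM in WT (edgeR adjusted p = 0.543 and 0.585). Of 13 tested transcripts that FOXO factors are known to raise, 8 had positive and 5 negative log2 fold changes (median 0.06). Ccng2, a cyclin G gene, had 14.4 ± 1.76 and 19.1 ± 5.14 CPM (edgeR adjusted p = 0.566), and Bcl2l11, the gene of the death protein BIM, had 20.3 ± 2.57 and 23.6 ± 1.35 CPM (edgeR adjusted p = 0.617). Pik3ip1, described above, is also 1 of the 13.

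Of 13 tested partners of the class III kinase and readers of its lipid, 3 had positive and 10 negative log2 fold changes (median -0.05), all between -0.18 and 0.10. Becn1, which encodes the autophagy protein beclin in the VPS34 complex, had 79.3 ± 2.89 against 86.3 ± 3.23 CPM (edgeR adjusted p = 0.692). Eea1, an endosomal reader of the class III lipid, had 7.88 ± 0.613 and 8.95 ± 0.141 CPM (edgeR adjusted p = 0.802). A list of 11 genes held PI4 and PIP5 lipid kinases, which supply the substrates of PI3Ks, together with Cdipt, which is not a kinase gene. Its median was -0.0007, with log2 fold changes from -0.23 to 0.68. Pi4ka had 24.2 ± 1.07 and 27.1 ± 2.22 CPM (edgeR adjusted p = 0.694) and Pip5k1a had 23.0 ± 2.39 and 20.7 ± 1.46 CPM (edgeR adjusted p = 0.754).

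**Figure D5:**
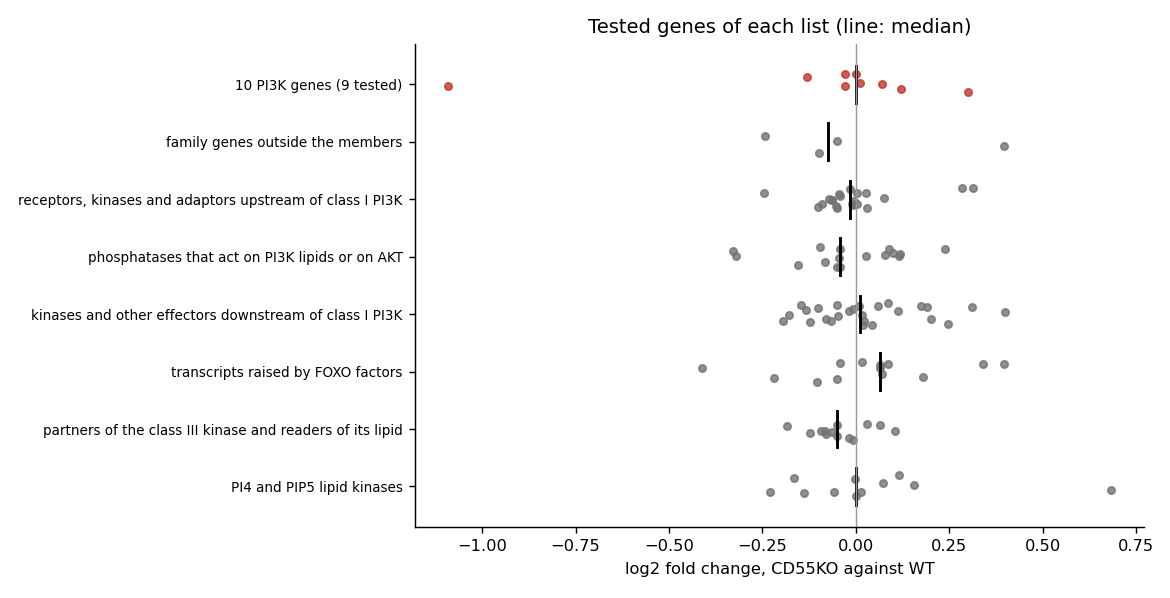
log2 fold change of CD55KO against WT for each tested gene of the 10 PI3K genes (red) and of the lists of related genes (grey), with the median of each as a black line. Pik3c2b, at -1.09, lies apart from the other points, which run from -0.41 to 0.68.

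The genes whose levels moved most like Pik3c2b over the 6 libraries were sought among 9204 other tested genes with a mean of at least 5 CPM. Likeness was the root mean square distance between log2 CPM values centred on each gene's mean. The 5 nearest were Srp54b (0.08), Creld2 (0.14), Sdf2l1 (0.17), H2-Q7 (0.19) and Lman2l (0.20), against a median distance of 0.57. Srp54b, a signal recognition particle gene on chromosome 12, had 29.3 ± 1.48 against 57.6 ± 2.38 CPM. Lman2l, a cargo receptor gene of the early secretory pathway, shares chromosome 1 with Pik3c2b and had 14.8 ± 2.56 and 27.4 ± 2.83 CPM. Creld2, Sdf2l1 and H2-Q7 are on chromosomes 15, 16 and 17. This likeness rests largely on the difference between the genotypes that the genes share, and the reads of Srp54b and H2-Q7 may be divided with close paralogs, which makes their values uncertain.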

How the data were processed

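The table holds estimated counts for each gene, deposited by the authors and not normalized. DRAGEN, edgeR and limma are named without roles per the submitters' processing notes. Per the labels' protocols, RNA came from a Qiagen RNeasy micro kit and the libraries from a SMARTer Ultra Low kit. The authors' genome build was not given in the sources used here. Coordinates and lengths were looked up by gene ID in GENCODE M21 (GRCm38), which holds 99.4% of the IDs, 98.9% of them with an equal transcript number. Of 55774 rows, 287 repeats with identical values were removed, and counts were rounded.

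Genotypes were compared in edgeR 4.0.16 (R 4.3.3) with filterByExpr, TMM scaling and the robust quasi-likelihood F-test on 13794 genes, adjusted by Benjamini and Hochberg, with a threshold of 0.05. SEs and 95% intervals come from that F statistic. CPM are TMM-scaled, and likeness used log2(CPM + 0.1). Other tools were limma 3.58.1, DESeq2 1.42.0 and scipy 1.17.1. The fit was also run on simulated counts. These were drawn with means and dispersions estimated from the same libraries, so that run is no independent check of the calls. Counting floors and intervals cover counting error only.

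The members, the lists and the naming rule were chosen with earlier results of these data known. Named are all members, the other family genes, called genes near Pik3c2b, and in each list the called genes or, where none was called, the 2 with the smallest p. Alternatives were a replicate block, scaling by DESeq2 size factors or by library totals, limma-voom and the DESeq2 Wald test, no filter, a stricter filter (50 counts in 3 libraries), a non-robust fit, the longest transcript as gene length, and leaving out each library.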

Additional observations from a re-analysis of the deposited data

How the results depend on the processing

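Pik3c2b kept its call in all 14 alternative fits (adjusted p at most 0.00031), and no other of the 9 tested PI3K genes was called in any of them. These fits reuse the libraries whose Pik3c2b counts guided the choice of the set, so they show dependence on processing only. The numbers of genes called higher and lower over the whole table were 19 and 36, and became 60 and 78 by the DESeq2 Wald test and 104 and 128 with no filter. Leaving out 1 library gave 12 to 20 higher and 24 to 35 lower genes, with 12 higher without WT replicate 3. Of the lists of related genes, 1 gene was called higher with no filter in place of 0, the FOXO-raised stress gene Sesn1 (log2 fold change 0.34, edgeR adjusted p = 0.032). The cause was not tested. With the longest transcript as gene length, the differences in level were 0.97 for Pik3ap1 over Pik3cd and 1.41 for Pik3c3 over Pik3r1. They were 0.42 for Pik3r5 over Pik3c2a and 6.73 for Pik3c2a over Pik3cb. Each of these pairs was no longer past the threshold (adjusted exact p = 0.0703) but stayed at the smallest exact p of 0.0312. The adjusted p rose because fewer of the 9 pairs were at that smallest value, so the rise does not show a change in these pairs. Pik3ca over Pik3r5 became 0.05 (adjusted exact p = 0.312), and Pik3cd over Pik3c3 turned to -0.04. With that length the shares of class I catalytic level over the 6 libraries were 10.9% for Pik3ca and 23.0% for Pik3cg.

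The labels do not say whether replicate numbers pair the samples. Deviations of same-numbered libraries from their genotype means correlated at 0.0746, -0.124 and 0.172 over genes. Those of differently numbered libraries ran from -0.234 to 0.174. With means of 3 libraries these values cannot decide whether the samples were paired. With the replicate block, 21 genes were called higher and 43 lower, and Pik3c2b had a log2 fold change of -1.10. Low counts limit Pik3cb and Pik3r6. In CD55KO both were under the floor of 3 counts in every library. In WT they had 3 to 8 and 3 to 14 counts per library.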
